A study of Mus musculus with 6 samples.

Results

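The collagen gene family was taken as every row of the gene table whose symbol has the form Col, a type number, the letter a and a chain number. That rule found 44 of 26100 rows. Sorted by type number, 11 were fibrillar (types 1, 2, 3, 5, 11, 24 and 27), 8 belonged to basement membrane (types 4, 15 and 18), 6 to beaded filaments (type 6), 9 to the FACIT group (types 9, 12, 14, 16, 19, 20 and 22) and 4 were transmembrane (types 13, 17, 23 and 25). The remaining 6, of types 7, 8, 10, 26 and 28, are called other types here. A low-count filter kept 40 of the 44 among 16633 tested rows; *Col9a1*, *Col9a2*, *Col19a1* and *Col26a1* were counted but not tested.

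RNA was read from whole lung of 6 mice that had all received bleomycin into the trachea, a drug that injures the alveolar lining and is followed by scarring. The lungs were taken on day 14. The 3 KO mice lacked *Clec7a*, which encodes the beta-glucan receptor dectin-1 of myeloid cells, and the 3 WT mice were wild type. The sources used here do not give strain, age, sex or the way the *Clec7a* allele was made, and lungs without bleomycin were not analysed here. The comparison asks how collagen transcripts of the scarring lung differ between the genotypes.

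Collagens are proteins of 3 alpha chains wound into a triple helix, and each chain has its own gene. Types I, III and V form the banded fibrils that stiffen a scarred lung and are made mainly by fibroblasts and myofibroblasts. Type IV chains form the network of the basement membrane: α1 and α2 are made by many cells, whereas α3, α4 and α5 make up the mature network under the alveolar epithelium. FACIT collagens sit on the surface of fibrils, type VI forms beaded filaments around cells, and the transmembrane types are held in the cell membrane.

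As a check of the labels, *Clec7a* stood at 3.6, 6.85 and 2.84 CPM (counts scaled to library size) in KO replicates 1 to 3, against 60.6, 84.0 and 197 CPM in WT replicates 1 to 3. All 3 KO libraries lay below all 3 WT libraries (log2 fold change −4.68 ± 0.61 SE, DESeq2 adjusted p = 1.52e-14, edgeR adjusted p = 0.203). The Y chromosome gene *Ddx3y* had 126, 137 and 133 CPM in KO replicates 1 to 3, against 112, 134 and 131 CPM in WT replicates 1 to 3. RNA of male mice was thus read in all 6 libraries. Library totals ran between 31052936 and 34451956 counts. Whole lung was recognisable in every library by the surfactant gene *Sftpc*. Its level differed widely, from 938 CPM in WT replicate 3 to 13701 CPM in KO replicate 1. Mitochondrial counts were highest in KO replicate 1 (7.34%), which stood apart. WT replicate 1 came next (3.87%), close to the other libraries (2.69% to 3.48%). Values are also given without both replicate 1 libraries, although WT replicate 1 did not stand apart in mitochondrial share. Replicate 1 was the lowest library within both genotypes for 31 of the 40 tested collagen genes (30.1% of all genes). Leaving both out thus removes low collagen values from each genotype. In whole tissue, fewer cells of a type and less RNA per cell cannot be told apart.

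Collagen transcripts made up a smaller average share of the KO libraries, and the range within each genotype was wider than the difference between them. All 44 genes together took 0.419%, 2.30% and 1.48% of the counts in KO replicates 1 to 3, against 0.866%, 3.10% and 3.40% in WT replicates 1 to 3. The groups overlapped, because WT replicate 1 lay below KO replicates 2 and 3. The means were 1.40 ± 0.94% in KO and 2.46 ± 1.38% in WT (SD, n = 3 each). Wilson 95% intervals of the 6 shares were at most 0.0121 percentage points wide and cover counting error only. Fibrillar genes averaged 0.793 ± 0.610% of counts in KO and 1.55 ± 0.95% in WT, and beaded filament genes 0.127 ± 0.078% in KO and 0.299 ± 0.155% in WT. Basement membrane genes were closer, with 0.427 ± 0.238% in KO and 0.522 ± 0.240% in WT.

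**Figure D1:**
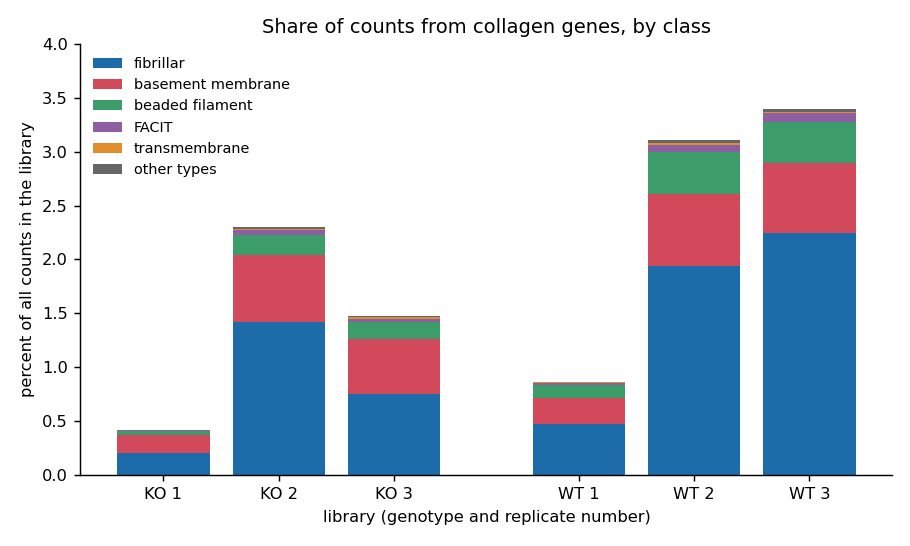
Bars give the percent of all counts in each of the 6 libraries that came from collagen genes, stacked by class, with the KO libraries on the left. KO replicate 1 is the lowest at 0.419% and WT replicate 3 the highest at 3.40%, and replicate 1 is the lowest library of both genotypes.

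Per unit of transcript length, the ranking was headed by the same 5 genes in both genotypes. *Col3a1* averaged 524 ± 336 FPKM in KO and 801 ± 427 FPKM in WT (SD, n = 3 each; fragments scaled to transcript length and library size). *Col1a2* averaged 380.1 ± 321 FPKM in KO and 717 ± 457 FPKM in WT, and *Col1a1* 302 ± 281 FPKM in KO and 703 ± 502 FPKM in WT. Of the ubiquitous type IV chains, *Col4a1* had 328 ± 208 FPKM in KO, where it stood above *Col1a1*, and 407 ± 203 FPKM in WT, where it stood below. *Col4a2* averaged 202 ± 125 FPKM in KO and 267 ± 135 FPKM in WT. At the other end, *Col19a1* averaged 0.0122 FPKM in KO and was listed at 0 in all WT libraries.

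No collagen gene passed the adjusted threshold of 0.05 in edgeR's quasi-likelihood test, the test used for all genes, and neither did any of the 16633 genes tested (0% called in either direction). At an unadjusted p under 0.05, 2 collagen genes of 40 were higher in KO, *Col4a5* and *Col4a6*, against 5.95% of all genes tested, and 0 were lower, against 5.89%. DESeq2, run beside it, called the same 2 genes higher among the 42 members to which it gave an adjusted p, where 1.91% of 18663 rows were called higher, and it called 0 members lower, where 1.73% were. All 3 KO libraries lay above all 3 WT libraries for *Col4a5*, *Col4a6* and *Col17a1* (9.81% of all genes), and for 0 members did they lie below (11.3%). With 1 library left out at a time, edgeR's count of members lower at an unadjusted p under 0.05 became 4 without KO replicate 2 (4.70% of all genes) and 5 without WT replicate 1 (6.71%). The count of members higher became 5 without KO replicate 1 (5.74%), and 3 without KO replicate 2 (4.59%) or WT replicate 1 (8.86%).

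Most members nevertheless had estimates below 0. Of the 40, 27 were lower in KO and 13 higher, against 51% lower and 49% higher among all genes. The median log2 fold change was −0.41 over the collagen genes and −0.01 over all genes. That median moved with single libraries: it was 0.02 without KO replicate 1, and −0.94 without KO replicate 2. Without both replicate 1 libraries it was −0.34.

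The libraries ranked alike for many members. KO replicate 1 was the lowest of all 6 libraries for 25 of the 40 genes, against 23.8% of all genes, while WT replicate 1 was the lowest for 8, also against 23.8%. Replicate 1 was the lowest within both genotypes for 31 members, against 30.1% of all genes. One full order, running upward through KO replicate 1, WT replicate 1, KO replicate 3, KO replicate 2, WT replicate 2 and WT replicate 3, was shared by 12 members and by 1.64% of all genes. Those 12 were *Col1a1*, *Col1a2*, *Col3a1*, *Col5a1*, *Col27a1*, *Col15a1*, *Col18a1*, *Col6a1*, *Col6a2*, *Col12a1*, *Col16a1* and *Col7a1*.

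**Figure D2:**
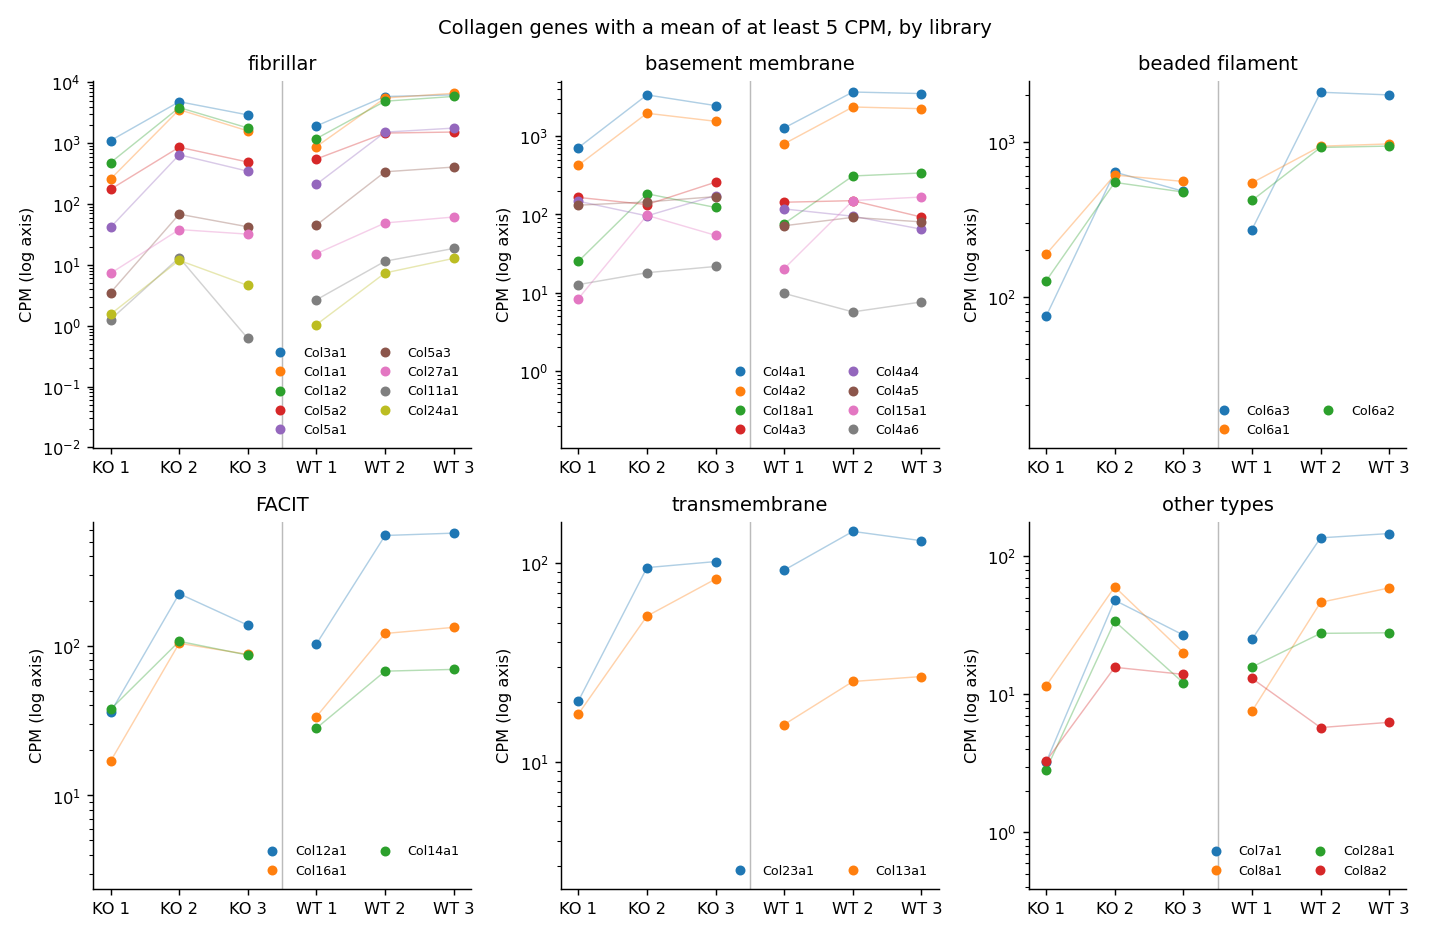
Points give CPM on a log axis in KO replicates 1 to 3 (left of the line) and WT replicates 1 to 3 (right of it) for the 29 collagen genes with a mean of at least 5 CPM, 1 panel per class, with faint lines joining the libraries of a genotype. Replicate 1 is low in both genotypes for most fibrillar, beaded filament and FACIT genes, while the curves of *Col4a3*, *Col4a4*, *Col4a5* and *Col4a6* are flat by comparison.

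With both replicate 1 libraries left out, the remaining pairs of libraries were closer to each other. KO replicates 2 and 3 lay below WT replicates 2 and 3 for 19 of the 40 members, against 33.2% of all genes, and above them for 10, against 30.8%. In edgeR's test of those 4 libraries, 14 members were lower at an unadjusted p under 0.05, against 14.7% of the 16744 genes tested, and 6 were higher, against 15.3%. The adjusted threshold was passed by 0 members, against 0.108% of genes called higher and 0.167% called lower. The 14 were *Col1a1*, *Col5a1*, *Col5a2*, *Col5a3*, *Col27a1*, *Col15a1*, *Col18a1*, *Col6a1*, *Col6a2*, *Col6a3*, *Col12a1*, *Col16a1*, *Col23a1* and *Col7a1*, and the 6 were *Col4a5*, *Col4a6*, *Col14a1*, *Col13a1*, *Col17a1* and *Col8a2*.

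**Figure D3:**
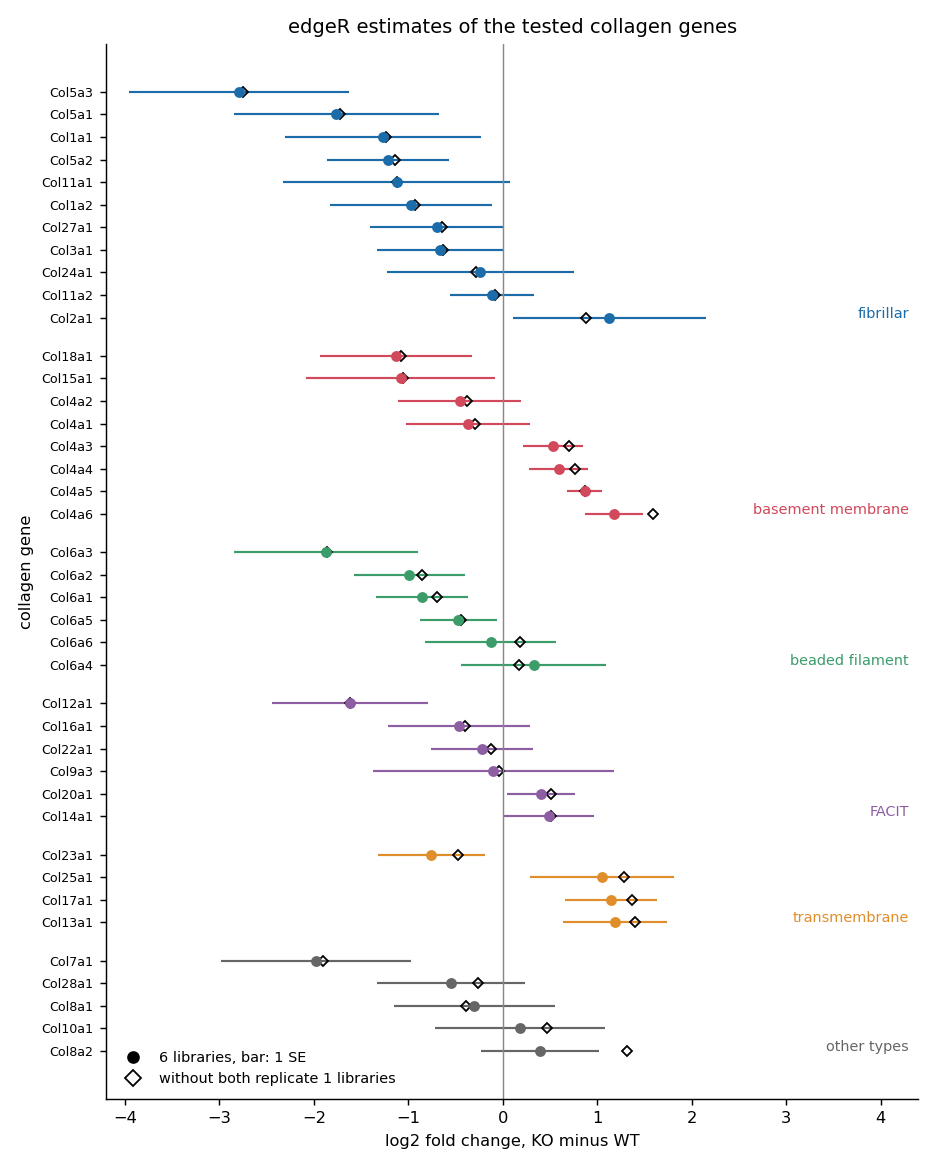
Filled points give the edgeR log2 fold change, KO minus WT, of each of the 40 tested collagen genes over all 6 libraries, with bars of 1 SE, and open diamonds the estimate without both replicate 1 libraries. Of the 11 fibrillar genes 10 lie left of 0, the basement membrane genes split 4 and 4 about it, and for most members the diamond falls within the bar.

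Among the fibrillar collagens, 10 of 11 estimates were below 0 and none passed the test (median −0.97, and −0.93 without both replicate 1 libraries). Leaving out single libraries moved that median between −1.82 without KO replicate 2 and −0.50, which was reached without KO replicate 1 and again without WT replicate 3. *Col1a1* (ENSMUSG00000001506, chr11:94936224-94953042 in GRCm38, plus strand) encodes the α1 chain of type I, the main fibril collagen of scar. It stood at 258, 3563 and 1593 CPM in KO, against 881, 5548 and 6620.3 CPM in WT. KO replicate 1 was lowest, and WT replicate 1 lay below both other KO libraries, so the groups overlapped. The edgeR estimate was −1.27 ± 1.04 (adjusted p = 0.680), its SE nearly as large as itself.

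*Col1a2* (ENSMUSG00000029661, chr6:4504814-4541544, plus strand), which encodes the partner chain α2 of type I, had 480.1, 3862 and 1782 CPM in KO, against 1193, 4907 and 5882 CPM in WT. Its libraries stood in the order of *Col1a1* and overlapped in the same way (−0.97 ± 0.86). *Col3a1* (ENSMUSG00000026043, chr1:45311538-45349706, plus strand) makes the homotrimer of type III, found with type I in compliant tissue, and had 1107, 4816 and 2920.0 CPM in KO, against 1927, 5858 and 6235 CPM in WT. Its estimate was nearer to 0 (−0.66 ± 0.66), and the order of the libraries was again that of *Col1a1*.

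Type V collagen, which starts fibrils and limits their width, held the 2 lowest estimates of the fibrillar class, those of *Col5a3* and *Col5a1*. *Col5a2* stood at 175, 861 and 490.3 CPM in KO, against 552, 1469 and 1528 CPM in WT. KO replicate 2 was the 1 KO library above WT replicate 1 (−1.22 ± 0.65, edgeR adjusted p = 0.517). Picked after their values were seen, *Col5a1* and *Col5a3* lay further from 0. *Col5a1* had 41.6, 646 and 347 CPM in KO, against 211, 1521 and 1773 CPM in WT (−1.76 ± 1.08). *Col5a3*, the chain of a rarer type V trimer, had 3.51, 68.2 and 42.3 CPM in KO, against 45.2, 339 and 406 CPM in WT. Its groups overlapped only through WT replicate 1, which lay below KO replicate 2 (−2.79 ± 1.16, unadjusted p = 0.050, edgeR adjusted p = 0.423, DESeq2 adjusted p = 0.0638). Without both replicate 1 libraries its estimate was −2.75 ± 0.27 (edgeR adjusted p = 0.0549).

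The other fibrillar genes were low in this lung. Estimates were −0.70 ± 0.71 for *Col27a1*, −1.12 ± 1.2 for *Col11a1*, −0.24 ± 0.99 for *Col24a1* and −0.11 ± 0.45 for *Col11a2*. *Col2a1*, the fibril collagen of cartilage, had at most 0.744 CPM in any library and was the 1 fibrillar gene with an estimate above 0 (1.13 ± 1.02). Cartilage itself was hardly present: of 9 cartilage markers *Snorc* was at 0 in all libraries, *Cnmd*, *Matn1* and *Ucma* were under 1 CPM, and most of the summed 33.9 to 55.4 CPM in KO and 22.7 to 48.6 CPM in WT came from *Matn4*.

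Markers of collagen-producing cells differed from list to list. Of 8 genes listed for scar fibroblasts 7 had estimates below 0, where 51% of all genes did, with a median of −1.36. Their summed level was 326, 1938 and 1377 CPM in KO, against 773, 3124 and 3521 CPM in WT, which is the library order of *Col1a1*. *Grem1* (−3.04 ± 0.95) and *Adam12* (−2.38 ± 0.72), named after their values were seen, were called lower by DESeq2. The DESeq2 adjusted p was 0.00807 and 0.0140, where 1.73% of all genes were called lower. By edgeR neither was called (adjusted p = 0.309 and 0.299). The listed genes of highest mean CPM, *Tnc* (−2.00 ± 0.92) and *Postn* (−0.21 ± 0.64), were called by neither test. The 7 contractile genes summed to 413, 1184 and 722 CPM in KO, against 1317, 1808 and 1836 CPM in WT, and the sums of the genotypes did not overlap. Of the 7, 5 had estimates below 0, where 51% of all genes did. *Des* was the 1 called lower by DESeq2 (−1.18 ± 0.34, adjusted p = 0.0483, edgeR adjusted p = 0.289). The 8 general fibroblast markers had 5 estimates above 0 (median 0.63), where 49% of all genes did. *Tcf21*, named after its values were seen, was the 1 of them called by DESeq2, and it was higher. Its estimate was 1.299 ± 0.206 (DESeq2 adjusted p = 0.000143, edgeR adjusted p = 0.203), where DESeq2 called 1.91% of all genes higher. The 8 markers summed to 1441, 2365 and 2242 CPM in KO, against 1357, 1520.4 and 1553 CPM in WT. Their part in the collagen values was not tested.

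Type IV collagen split by chain. *Col4a1* and *Col4a2* overlapped widely, while *Col4a5* and *Col4a6* were higher in all 3 KO libraries than in any WT library. The 6 type IV genes lie in pairs that are read away from each other. *Col4a1* and *Col4a2*, on chromosome 8, overlap by 22 bases at their annotated starts. The starts of *Col4a4* and *Col4a3*, on chromosome 1, are 71 bases apart, and those of *Col4a6* and *Col4a5*, on chromosome X, 1308 bases apart. RefSeq windows of 300 bases, from 250 before to 50 after a start, are given for 2 of these pairs because they hold the ubiquitous pair, whose windows overlap, and the pair whose KO and WT libraries did not overlap, whose windows are apart. All are from build GRCm38.p6 and are written 5′ to 3′ on the strand of the gene. Capitals in the first 2 mark the 78 bases that both windows share, chr8:11312777-11312854. Capitals in the other 2 mark the motifs CCAAT and GGGCGG on either strand.
Col4a1 (chr8:11312777-11313076, minus strand): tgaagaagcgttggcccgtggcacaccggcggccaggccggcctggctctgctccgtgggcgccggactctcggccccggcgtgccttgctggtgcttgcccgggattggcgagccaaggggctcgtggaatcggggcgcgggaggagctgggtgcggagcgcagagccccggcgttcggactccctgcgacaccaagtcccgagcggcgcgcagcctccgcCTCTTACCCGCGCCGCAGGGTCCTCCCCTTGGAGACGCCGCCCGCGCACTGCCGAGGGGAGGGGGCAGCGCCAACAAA
Col4a2 (chr8:11312555-11312854, plus strand): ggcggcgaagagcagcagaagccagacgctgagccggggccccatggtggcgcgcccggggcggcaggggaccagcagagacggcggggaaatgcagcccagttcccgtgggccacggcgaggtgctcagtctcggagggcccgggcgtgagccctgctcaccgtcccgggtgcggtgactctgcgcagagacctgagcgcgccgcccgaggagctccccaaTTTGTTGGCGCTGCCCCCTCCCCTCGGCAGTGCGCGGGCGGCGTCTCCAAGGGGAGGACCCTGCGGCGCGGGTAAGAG
Col4a5 (chrX:141475169-141475468, plus strand): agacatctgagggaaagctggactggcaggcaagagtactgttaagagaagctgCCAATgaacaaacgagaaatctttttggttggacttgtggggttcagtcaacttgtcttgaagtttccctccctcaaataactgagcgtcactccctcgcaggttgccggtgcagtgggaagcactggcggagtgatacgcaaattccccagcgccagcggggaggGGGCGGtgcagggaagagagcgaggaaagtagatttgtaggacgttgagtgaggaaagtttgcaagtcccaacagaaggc
Col4a6 (chrX:141474027-141474326, minus strand): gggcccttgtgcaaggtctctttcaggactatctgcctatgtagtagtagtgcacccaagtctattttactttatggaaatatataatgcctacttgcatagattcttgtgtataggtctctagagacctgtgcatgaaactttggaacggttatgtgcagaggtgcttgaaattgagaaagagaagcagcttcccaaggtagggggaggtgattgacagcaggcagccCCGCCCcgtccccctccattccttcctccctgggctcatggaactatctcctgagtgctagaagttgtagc

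An entry was found for 35 of the 44 members, with 38 windows in all. The motif GGGCGG (or CCGCCC), which the factor Sp1 can bind, was in 23 of these 38 windows (60.5%), against 35.7% of all 32851 windows. CCAAT (or ATTGG) was in 13 (34.2%, against 37.4% of all) and TATAAA (or TTTATA) in 5 (13.2%, against 13.6%). The windows are not independent, since some members have more than 1. The GGGCGG match in the stretch shared by *Col4a1* and *Col4a2* was counted in both windows. ATTGG and GGGCGG can share bases where they adjoin, and a match is a description of the sequence only. The *Col4a5* window held 1 CCAAT and 1 GGGCGG, and the *Col4a6* window 1 GGGCGG.

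*Col4a1* (ENSMUSG00000031502, chr8:11198423-11312826 in GRCm38, minus strand) had 715, 3380.1 and 2467 CPM in KO, against 1279, 3679 and 3517 CPM in WT. Its bidirectional partner *Col4a2* (ENSMUSG00000031503, chr8:11312805-11449287, plus strand) had 426, 1969.6 and 1554 CPM in KO, against 801, 2367 and 2252 CPM in WT. Both were lowest in KO replicate 1 and next lowest in WT replicate 1, and the genotypes overlapped. The estimates were −0.37 ± 0.65 and −0.46 ± 0.65, and that of *Col4a1* changed sign to 0.05 without KO replicate 1. Within a library the 2 counts moved together: 1.68, 1.72 and 1.59 *Col4a1* counts were read per *Col4a2* count in KO, against 1.6, 1.55 and 1.56 in WT.

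*Col4a3* (ENSMUSG00000079465, chr1:82586921-82722059, plus strand) did not follow that order, with 165, 134 and 259 CPM in KO, against 143, 150.3 and 92.8 CPM in WT. KO replicate 2 lay below 2 of the WT libraries, and KO replicate 3 was the highest (0.53 ± 0.32, edgeR adjusted p = 0.562). *Col4a4* (ENSMUSG00000067158, chr1:82448423-82586849, minus strand) had 148, 96.0 and 175 CPM in KO, against 118, 95.1 and 64.9 CPM in WT. Its KO replicate 2 lay below WT replicate 1 and level with WT replicate 2, so its groups overlapped too (0.59 ± 0.31, edgeR adjusted p = 0.515). Part of the *Col4a3* exons, 5.65% of their bases, lies opposite those of *C430014B12Rik*, and without strand in the counting, reads of the 2 genes there cannot be told apart.

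*Col4a5* (ENSMUSG00000031274, chrX:141475385-141689234, plus strand), the third chain of the α3, α4 and α5 trimer, had 132, 145 and 169 CPM in KO, against 71.8, 91.9 and 80.5 CPM in WT. Every KO library lay above every WT library, and replicate 1, although the lowest of each genotype, was close to the other libraries. Means were 149 ± 19.1 CPM in KO and 81.4 ± 10.1 CPM in WT (SD, n = 3 each). The difference was 1.82-fold (log2 0.87 ± 0.19, unadjusted p = 0.00262, edgeR adjusted p = 0.232), and DESeq2 called it (adjusted p = 0.00954). Without both replicate 1 libraries it was 0.87 ± 0.13 (edgeR adjusted p = 0.0617).

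*Col4a6* (ENSMUSG00000031273, chrX:141165403-141474076, minus strand), whose chain joins α5 in another trimer known from smooth muscle and some epithelia, was far lower per length, at 2.58 ± 0.70 FPKM in KO and 1.08 ± 0.25 FPKM in WT. It had 12.7, 18 and 21.6 CPM in KO, against 9.80, 5.69 and 7.62 CPM in WT. Again no WT library reached the lowest KO library (2.27-fold, log2 1.18 ± 0.31, unadjusted p = 0.00733, edgeR adjusted p = 0.268, DESeq2 adjusted p = 0.0236). Both genes kept an unadjusted p under 0.05 when any 1 library was left out, with log2 fold changes of 0.77 to 0.97 for *Col4a5* and 1.00 to 1.39 for *Col4a6*. DESeq2 was not repeated with libraries left out.

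**Figure D4:**
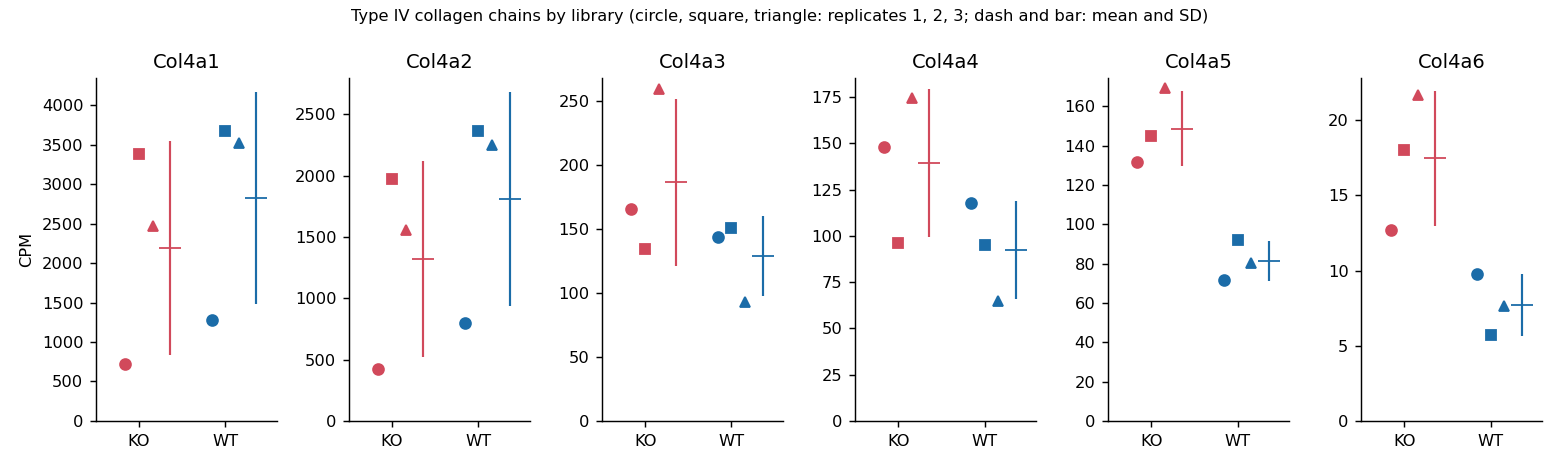
Each panel gives the CPM of a type IV chain gene in the 3 KO (red, left) and 3 WT (blue, right) libraries on an axis that starts at 0, with replicates 1, 2 and 3 as circle, square and triangle and the mean and SD beside them. The KO and WT points overlap for *Col4a1*, *Col4a2*, *Col4a3* and *Col4a4* and do not for *Col4a5*, where KO starts at 132 and WT ends at 91.9 CPM, and for *Col4a6*, where KO starts at 12.7 and WT ends at 9.80 CPM.

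Expressed as a share of all type IV counts, the α3 to α6 genes made up 28.6%, 6.84% and 13.4% in KO replicates 1 to 3, against 14.2%, 5.37% and 4.09% in WT replicates 1 to 3. WT replicate 1 lay above KO replicates 2 and 3, so the groups overlapped. Wilson 95% intervals of these shares were at most 0.788 percentage points wide. The shares also move with *Col4a1* and *Col4a2*, which were lowest in KO replicate 1 and next lowest in WT replicate 1. In CPM the α3 to α6 genes did not keep the order of the shares: *Col4a3* and *Col4a5* were both highest in KO replicate 3. The summed markers of lung epithelium, the tissue that lies on this network, put the 6 libraries in the same order as these shares. That order is the reverse of the one shared by 12 collagen genes, *Col1a1* among them, and by 1.64% of all genes. It is therefore not particular to the α3 to α6 genes. The sum was carried by *Sftpc*, with 13701 of 20214 CPM in KO replicate 1. Single markers gave other orders, *Sftpb* being highest in WT replicate 1 at 2409 CPM. All 7 had estimates above 0 in KO (median 0.68), where 49% of all genes did. Only 1 of them, *Rtkn2*, was called higher by DESeq2 (2.39 ± 0.72, adjusted p = 0.0133, edgeR adjusted p = 0.297), where 1.91% of all genes were. The 7 summed to 20214, 3336 and 9395 CPM in KO, against 11315, 2942 and 1919 CPM in WT. Their part in the type IV values was not tested.

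The remaining basement membrane genes followed the order of the fibrillar ones. *Col18a1*, whose chain carries endostatin at its end, had 25.2, 184 and 123 CPM in KO, against 76.6, 311 and 339.6 CPM in WT. Only WT replicate 1 lay within the range of the KO libraries (−1.13 ± 0.80). *Col15a1*, its relative in vessel and muscle basement membrane, had 8.40 to 97.5 CPM in KO and 20.3 to 167 CPM in WT (−1.08 ± 1.00).

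Type VI collagen, the filament that links cells to the surrounding fibrils, had estimates below 0 for its 3 main chains. *Col6a3* stood at 74.9, 638 and 479 CPM in KO, against 272, 2088 and 2006 CPM in WT. WT replicate 1 overlapped the KO libraries, and the other 2 WT libraries were far above all 3 of them (−1.87 ± 0.98, edgeR adjusted p = 0.512; −1.87 ± 0.18 without both replicate 1 libraries, adjusted p = 0.0518). *Col6a1* had 188, 611 and 555 CPM in KO, against 544, 937 and 969 CPM in WT. *Col6a2*, its neighbour on chromosome 10, had 127, 547 and 474 CPM in KO, against 419, 919.7 and 938 CPM in WT. In both, WT replicate 1 lay below KO replicates 2 and 3, which in turn lay below the other WT libraries (−0.86 ± 0.49 and −0.99 ± 0.59). *Col6a5* never exceeded 1.93 CPM (1.26, 0.863 and 1.33 CPM in KO, against 1.78, 1.08 and 1.93 CPM in WT; −0.47 ± 0.41), and *Col6a4* and *Col6a6* stayed under 2 CPM too, with estimates of 0.33 ± 0.77 and −0.13 ± 0.70.

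Of the FACIT genes *Col12a1*, found on type I fibrils under load, had the estimate farthest from 0. It had 36, 224 and 138 CPM in KO, against 103, 549 and 569 CPM in WT, and overlapped through WT replicate 1 (−1.62 ± 0.83, edgeR adjusted p = 0.503). *Col14a1*, which also sits on type I fibrils, was on the other side of 0, with 37.7, 108 and 86.9 CPM in KO, against 28.2, 67.9 and 69.7 CPM in WT. There KO replicate 1 lay among the WT libraries and the other KO libraries above them all (0.49 ± 0.49). *Col16a1* had 17, 104 and 87.8 CPM in KO, against 33.7, 121 and 133 CPM in WT, and its estimate of −0.46 ± 0.75 came to 0.00 without KO replicate 1. *Col20a1* was at 1.96, 2.80 and 3.42 CPM in KO, against 1.78, 1.91 and 2.48 CPM in WT, and its groups overlapped (0.41 ± 0.36). *Col22a1* (−0.22 ± 0.54) and *Col9a3* (−0.10 ± 1.27) were near or below 1 CPM, and 6.07% of the *Col9a3* exon bases lie opposite *Tcfl5*.

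The transmembrane genes had the highest class median, 1.10, with 3 of 4 estimates above 0 and none passing the test. With 1 library left out it ran between 0.59, without KO replicate 3, and 1.47, without KO replicate 1. On the log2(FPKM + 1) scale the median of these 4 was 0.18, and values that low are compressed by the added 1. *Col13a1*, a collagen of cell adhesion sites, had 17.3, 53.9 and 82.8 CPM in KO, against 15.4, 25.3 and 26.8 CPM in WT. KO replicate 1 lay within the WT range and the other 2 KO libraries above it (1.19 ± 0.55, edgeR adjusted p = 0.462). *Col17a1*, the hemidesmosome collagen of epithelia, had 1.45, 1.93 and 3.95 CPM in KO, against 1.01, 1.38 and 0.905 CPM in WT. Its groups did not overlap, by a margin of less than 0.1 CPM, and KO replicate 3 set its size (1.15 ± 0.49, edgeR adjusted p = 0.432; 0.62 without that library). *Col25a1*, known from amyloid plaques of the brain, had 0.190, 0.982 and 1.33 CPM in KO, against 0.246, 0.338 and 0.613 CPM in WT, with both the lowest and the highest library in KO (1.05 ± 0.76). *Col23a1* had 20.2, 94.4 and 101 CPM in KO, against 91.8, 144 and 129 CPM in WT, and WT replicate 1 lay just below KO replicates 2 and 3 (−0.76 ± 0.57).

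The median of the other types, −0.30, rested on single libraries, with −1.55 without KO replicate 2 and 0.18 without WT replicate 3. *Col7a1*, the chain of the anchoring fibril below epithelia, had the lowest estimate of these types. It stood at 3.22, 48.1 and 26.9 CPM in KO, against 25.2, 136 and 147 CPM in WT, and WT replicate 1 lay inside the KO range (−1.98 ± 1.01, edgeR adjusted p = 0.502). *Col8a1*, a network collagen of vessels, had 11.5, 60.2 and 20.1 CPM in KO, against 7.56, 46.5 and 59.2 CPM in WT, with the highest library in KO and the lowest in WT (−0.30 ± 0.85). *Col8a2* had 3.28, 15.7 and 14.0 CPM in KO, against 13.1, 5.75 and 6.27 CPM in WT. Its 2 replicate 1 libraries stood opposite to the rest, so that the estimate of 0.40 ± 0.62 became 1.31 ± 0.17 without them (edgeR adjusted p = 0.0576). *Col28a1*, a minor collagen described around nerves, had 2.84, 33.9 and 12.1 CPM in KO, against 15.8, 27.7 and 28.0 CPM in WT (−0.55 ± 0.78). Markers of the glia of nerve summed to 3.16 to 6.49 CPM in KO and 4.3 to 6.73 CPM in WT. *Col10a1*, the collagen of growth cartilage, reached at most 1.40 CPM (0.19 ± 0.90).

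Ratios between chains do not depend on library scaling, and 6 were compared. *Col1a1* to *Col1a2* counts stood at 0.537, 0.923 and 0.894 in KO, against 0.738, 1.13 and 1.13 in WT. In both genotypes replicate 1 had the least *Col1a1* per *Col1a2*, and the groups overlapped (log2 difference −0.36, exact 2-sided permutation p = 0.3). *Col3a1* per *Col1a1* was 4.29, 1.35 and 1.83 in KO, against 2.19, 1.06 and 0.942 in WT, with replicate 1 the highest in both (0.76, exact permutation p = 0.3). Log2 differences were 0.08 for *Col4a1* to *Col4a2* (exact permutation p = 0.2), −0.08 for *Col4a3* to *Col4a4* (p = 0.6), −0.62 for *Col5a1* to *Col5a2* (p = 0.5) and 0.17 for *Col6a1* to *Col6a2* (p = 0.5). All 6 overlapped between the genotypes, each had a Benjamini-Hochberg adjusted p of 0.6, and the smallest p that 3 against 3 libraries allow is 0.1.

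Most genes that fold, trim and cross-link collagen had estimates below 0 too. Of 32 genes of collagen biosynthesis 27 did so, against 51% of all genes, with a median of −0.58 (−0.50 without both replicate 1 libraries). None passed edgeR's adjusted threshold, 12 were lower and 2 higher at an unadjusted p under 0.05 (5.89% and 5.95% of all genes), and DESeq2 called 3 lower and 1 higher (1.73% and 1.91%). *Lox*, the lysyl oxidase that starts cross-linking, had 175, 532 and 369 CPM in KO, against 857, 1143 and 902 CPM in WT. No KO library reached the lowest WT library, and unlike the fibrillar genes WT replicate 1 stood level with the other WT libraries (−1.43 ± 0.42, DESeq2 adjusted p = 0.0286, edgeR adjusted p = 0.294). *P4hb*, a subunit of the prolyl hydroxylase, had 603, 749 and 718 CPM in KO, against 968, 1079 and 993 CPM in WT (−0.55 ± 0.22), again with no overlap. The other DESeq2 calls, named after their values were seen, were the *Lox* relatives *Loxl2* (−2.11 ± 0.74, adjusted p = 0.0449) and *Loxl4* (−1.68 ± 0.36, adjusted p = 0.00201), which were lower, and *Pcolce2*, which aids removal of the procollagen end (1.28 ± 0.20, adjusted p = 7.48e-05), which was higher.

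Of 10 collagen receptors tested, 6 had estimates above 0 (median 0.23), where 49% of all genes did, and none had an unadjusted p under 0.05 or was called by DESeq2. The shared integrin chain *Itgb1* had 905, 1355 and 1215 CPM in KO, against 958, 1779 and 1636 CPM in WT (−0.33 ± 0.33), and the collagen-binding chain *Itga1* 134, 299 and 310.3 CPM in KO, against 45.3, 208 and 237 CPM in WT (0.60 ± 0.63). Both overlapped between the genotypes. Of 10 tested proteoglycans and regulators of fibrils 6 were above 0 (median 0.38), also near that share. *Sparc*, a collagen-binding matrix protein, had 3321, 3295 and 2162 CPM in KO, against 4094, 3821 and 3787 CPM in WT, with no overlap (−0.41 ± 0.30, edgeR adjusted p = 0.633). *Bgn*, which encodes biglycan, had 653, 2301 and 1651 CPM in KO, against 1399, 2583 and 2575 CPM in WT, with overlap (−0.51 ± 0.51). The 1 DESeq2 call was *Ogn*, osteoglycin, with 441, 305 and 242 CPM in KO, against 115, 143 and 139 CPM in WT (1.31 ± 0.27, DESeq2 adjusted p = 0.00229, edgeR adjusted p = 0.226).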

How the data were processed

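Whole-lung RNA of 6 mice was sequenced, 3 KO and 3 WT, 1 library per mouse, so p-values reflect differences among 6 animals. TRIzol extraction and NEBNext Ultra libraries are stated per the labels' protocols. The submitters' processing notes list HISAT2 2.0.4, StringTie 1.3.4d and the build GRCm38. The sources used here do not give the strand setting, the annotation release or how shared reads were counted. Raw gene counts, not normalized, were deposited by the authors, and FPKM values (scaled to gene length and mapped fragments) were deposited by the authors beside them, in which KO libraries bear no replicate number. Near-identical and overlapping genes are therefore uncertain. The 26100 rows had library totals of 31052936 to 34451956, so that counting error matters mainly for members near 1 CPM.

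Counts were tested with edgeR 4.0.16 (R 4.3.3; filterByExpr, TMM scaling, robust quasi-likelihood test of genotype, 2-sided), with Benjamini-Hochberg adjustment over all 16633 genes tested and a threshold of 0.05. The SE of a fold change was derived from the test's F statistic. CPM used the TMM factors. Alternatives were DESeq2 1.42.0, limma-voom (limma 3.58.1), plain or with sample weights, other scalings and filters, the replicate number as a block, each library left out, both replicate 1 libraries left out, and limma on log2(FPKM + 1) and log2(FPKM + 0.1), with a minimum of 0.5 FPKM in 3 libraries or none. On those scales low genes show too small a fold change. Scripts were tested on simulated counts. Values in every library are given for up to 4 members of each class with the highest mean CPM and for members with an unadjusted edgeR p under 0.05 or called by DESeq2; of each pathway list up to 2 genes of highest mean CPM are named. The members, the lists and this rule were chosen with earlier results of these data known. Gene coordinates come from GENCODE M21 (GRCm38) and promoter windows from RefSeq (GRCm38.p6).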

Additional observations from a re-analysis of the deposited data

How the results depend on the processing

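Of 697 estimates of single collagen genes under the 18 other fits, 676 kept the direction of the main one; 21, in 10 genes, changed sign, and the cause was not tested. No gene was called by edgeR with all 6 libraries under any scaling or filter; over all genes DESeq2 called 678, limma-voom with sample weights 2221, edgeR without both replicate 1 libraries 46, and edgeR with 1 library left out 0 to 3. Collagen genes called numbered 2 with DESeq2 and 7 with sample weights (*Col13a1*, *Col4a5* and *Col4a6* higher, *Col12a1*, *Col5a3*, *Col6a3* and *Col7a1* lower, against 7.24% and 6.11% of all genes). At an unadjusted p under 0.05, members higher in KO numbered 4 with DESeq2 (5.78% of all genes), 6 with sample weights (17%), 3 with total counts only (6.96%), 6 without both replicate 1 libraries (15.3%) and 2 to 5 with 1 library left out (3.11% to 8.86%). Members lower numbered 1 with DESeq2 size factors (5.72%), 1 without a low-count filter (4.63%), 6 with DESeq2 (5.57%), 10 with sample weights (16.1%), 14 without both replicate 1 libraries (14.7%) and 0 to 5 with 1 library left out (3.21% to 6.71%). The replicate block, whose numbers do not pair the mice by design (same-number correlations of 0.351, 0.350 and −0.0988; KO replicate 2 correlated best with WT replicate 3, 0.468), called 0 genes, and put 4 members higher (8.85% of all genes) and 16 lower (11.5%) at an unadjusted p under 0.05.

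With 1 library left out, the fibrillar median ranged from −1.82 to −0.50, the median of the other types from −1.55 to 0.18, and the difference in collagen share from −1.85 to −0.57 percentage points. The transmembrane median was 0.045 on the log2(FPKM + 1) scale and 0.036 on the log2(FPKM + 0.1) scale, where fewer genes were tested, and 0.18 on the first without the filter. *Col10a1* turned to −0.53 with limma-voom, −0.23 with sample weights and −0.47 with the replicate block; *Col6a6* turned to 0.34 with sample weights and 0.19 without both replicate 1 libraries. With 1 library left out, sign changes lay within −1.55 to 0.66 for *Col10a1*, −0.77 to 0.31 for *Col6a6*, −1.25 to 0.18 for *Col8a1*, −0.87 to 5.27e-05 for *Col16a1*, −0.36 to 0.16 for *Col11a2*, −1.20 to 0.51 for *Col24a1*, −0.48 to 0.12 for *Col22a1*, −0.83 to 0.050 for *Col4a1*, −0.62 to 0.48 for *Col9a3*, −0.15 to 1.01 for *Col6a4* and −0.18 to 0.038 for the log2 ratio of *Col4a3* to *Col4a4*.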

Other observations

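Markers of other tissues that a lung sample can hold were summed per library. The 8 airway secretory genes, led by *Scgb1a1*, summed to 2534, 1841 and 4553 CPM in KO, against 12042, 944 and 310.2 CPM in WT, so that WT replicate 1 alone exceeded all the others together. Without both replicate 1 libraries their median log2 fold change was 3.24, against −0.53 with all 6. The 6 mesothelium genes summed to 683, 172 and 265 CPM in KO, against 1227, 337 and 249 CPM in WT, and were highest in replicate 1 of both genotypes. Endothelium genes summed to 1418, 3028 and 3106 CPM in KO, against 932, 3202 and 2903 CPM in WT, and were lowest in replicate 1 of both. Leukocyte genes summed to 494, 737 and 404 CPM in KO, against 154, 334 and 466 CPM in WT (median 0.96). Heart muscle genes summed to 96.8, 137 and 272 CPM in KO, against 345, 57.2 and 66.3 CPM in WT. Basal epithelium summed to at most 11.9 CPM in KO and 5.74 CPM in WT, and bone to at most 1.16 CPM in KO and 3.32 CPM in WT. Skeletal muscle summed to at most 8.05 CPM in KO and 5.74 CPM in WT, with *Myh4* at 0 in all libraries. Its 1 DESeq2 call was *Ckm*, with 5.97, 3.16 and 5.95 CPM in KO, against 1.17, 0.492 and 0.963 CPM in WT. It was higher (2.52 ± 0.47, DESeq2 adjusted p = 5.61e-05, edgeR adjusted p = 0.203). The part of all these markers in the collagen values was not tested.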
